A study of Mus musculus with 18 samples.

Results

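The clustered protocadherins were taken by gene symbol from a table of 37319 genes: Pcdha, Pcdhb, Pcdhga, Pcdhgb or Pcdhgc followed by a number, or by a c for the C-type members. The rule found 58 entries, of which 14 belonged to the alpha cluster, 22 to the beta cluster and 22 to the gamma cluster. They carried 57 symbols, because Pcdha11 was listed under 2 gene identifiers. No measured value entered the rule.

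RNA was sequenced from the ipsilateral cortex of adult male C57BL/6J mice, 8 to 10 weeks old and weighing 24 to 26 g. Every mouse had received an adeno-associated virus into the left lateral ventricle 4 weeks before surgery. The virus carried either a scramble control hairpin (AAV-SYN-shRNA-Con, the scramble arm, C) or a hairpin against TIPARP, a mono-ADP-ribosyltransferase (AAV-SYN-shRNA-TIPARP, the TIPARP arm, T), and the labels call it neuron-specific. Mice then had sham surgery or tMCAO, a transient occlusion of the middle cerebral artery used as a model of stroke with reperfusion, and the occluded mice were killed at 24 h or 28 d. With 3 libraries each, the 6 groups are Sham_C and Sham_T, R24h_C and R24h_T at 24 h, and R28d_C and R28d_T at 28 d. The labels do not tie the 3 libraries of a group to different animals, and the spread behind each p-value is that between libraries, which may be technical. All groups carried a virus and a hairpin, and an uninjected group was not analysed here.

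Each protocadherin of these clusters is read from its own promoter ahead of a large variable exon that encodes the extracellular cadherin repeats, the membrane span and the start of the cytoplasmic tail. Alpha and gamma variable exons are spliced to constant exons that all members of that cluster share, while beta genes consist of the variable exon alone. Individual neurons choose a small and largely random set of alternate isoforms, through looping between promoters and enhancers that depends on CTCF and cohesin, and the C-type isoforms are expressed more broadly. The proteins bind the same isoform on facing membranes, which neurons use to tell their own branches from those of others, and the gamma cluster is known for its part in the survival of cortical interneurons.

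Values were FPKM (fragments per kilobase of transcript, scaled to the mapped fragments of the library), so the read depth was unknown. The summed FPKM of a library ran from 334950 to 424157. Tiparp itself was at 3.77 to 4.76 FPKM in Sham_C and 4.17 to 4.95 FPKM in Sham_T, with overlapping ranges. It was at 4.60 to 8.65 FPKM in R24h_C against 3.00 to 5.00 FPKM in R24h_T, and at 3.59 to 4.46 against 3.72 to 4.06 FPKM at 28 d. The difference between arms did not pass in sham (log2 difference 0.06, SE 0.10, adjusted p = 0.818), at 24 h (-0.60, SE 0.24, adjusted p = 0.672) or at 28 d (0.00, SE 0.10, adjusted p = 0.999986, limma with Benjamini-Hochberg adjustment), so the arms are named here by their labels. In bulk tissue, fewer cells of a type and less RNA per cell cannot be told apart. The summed level of 10 neuronal markers was 998 to 1104 FPKM in the sham libraries and all 10 were above 0 in every library. The 5 choroid plexus markers summed to 1.45 to 15.0 FPKM in 13 of the 18 libraries and to 84.5 to 1706 FPKM in Sham_T1, Sham_T2, R24h_C3, R28d_C2 and R28d_T2, and the 9 striatal markers summed to 42.2 to 400.2 FPKM.

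Gamma members were higher than beta members, and beta members higher than alpha members, by their median level and by how many passed the filter, while the single lowest member was in the beta cluster. The mean over the 18 libraries was at least 1 FPKM, the level required for a test, for 20 of 22 gamma members, 13 of 22 beta members and 2 of 14 alpha members. That left 35 members tested and 23 below the filter. The member means had a median of 2.60 FPKM in gamma, 1.11 FPKM in beta and 0.604 FPKM in alpha. The highest member mean was 35.0 FPKM in gamma (Pcdhgb8), 4.08 FPKM in alpha (Pcdhac2) and 3.70 FPKM in beta (Pcdhb9). FPKM are already per length, so these levels can be set side by side, with the limit on shared exons given further on.

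In the alpha cluster the C-type member Pcdhac2 (ENSMUSG00000102697) led, at 2.84, 4.04 and 6.76 FPKM (lowest, median and highest of 18 libraries). The other C-type member of that cluster, Pcdhac1, was at 0.357, 0.4999 and 0.652 FPKM. Among the alternate isoforms Pcdha6 was the highest, at 0.444, 1.09 and 1.53 FPKM, and the lowest was Pcdha8, with a mean of 0.138 FPKM. The remaining alternate alpha entries lay between these, from a mean of 0.326 FPKM for Pcdha1 to 0.888 FPKM for Pcdha12. The 2 entries of Pcdha11 had means of 0.329 and 0.622 FPKM.

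Beta members formed an even series without a leading gene. Pcdhb9 (ENSMUSG00000051242) was at 2.41, 3.71 and 5.04 FPKM, and Pcdhb20 was at 2.07, 2.66 and 3.16 FPKM. At the other end Pcdhb1 was at 0.0317 FPKM on average and listed at 0 in 3 libraries, and Pcdhb21 was listed at 0 in 7 libraries and reached 0.762 FPKM.

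In the gamma cluster the C-type members differed from one another. Pcdhgc5 (ENSMUSG00000102543) was at 5.00, 7.88 and 11.7 FPKM, with a coefficient of variation (CV, SD over mean) of 20.2%, near the median of all genes tested (18.5%). Pcdhgc4, the C-type isoform on which interneuron survival has been shown to depend, was at 1.06, 1.60 and 2.44 FPKM. Pcdhgc3 was at 0.796, 1.09 and 17.03 FPKM, so that its highest library stood far above its median. Of the alternate gamma isoforms, Pcdhga12 had the smallest CV, 9.76%, at 2.20, 2.57 and 2.97 FPKM.

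**Figure D1:**
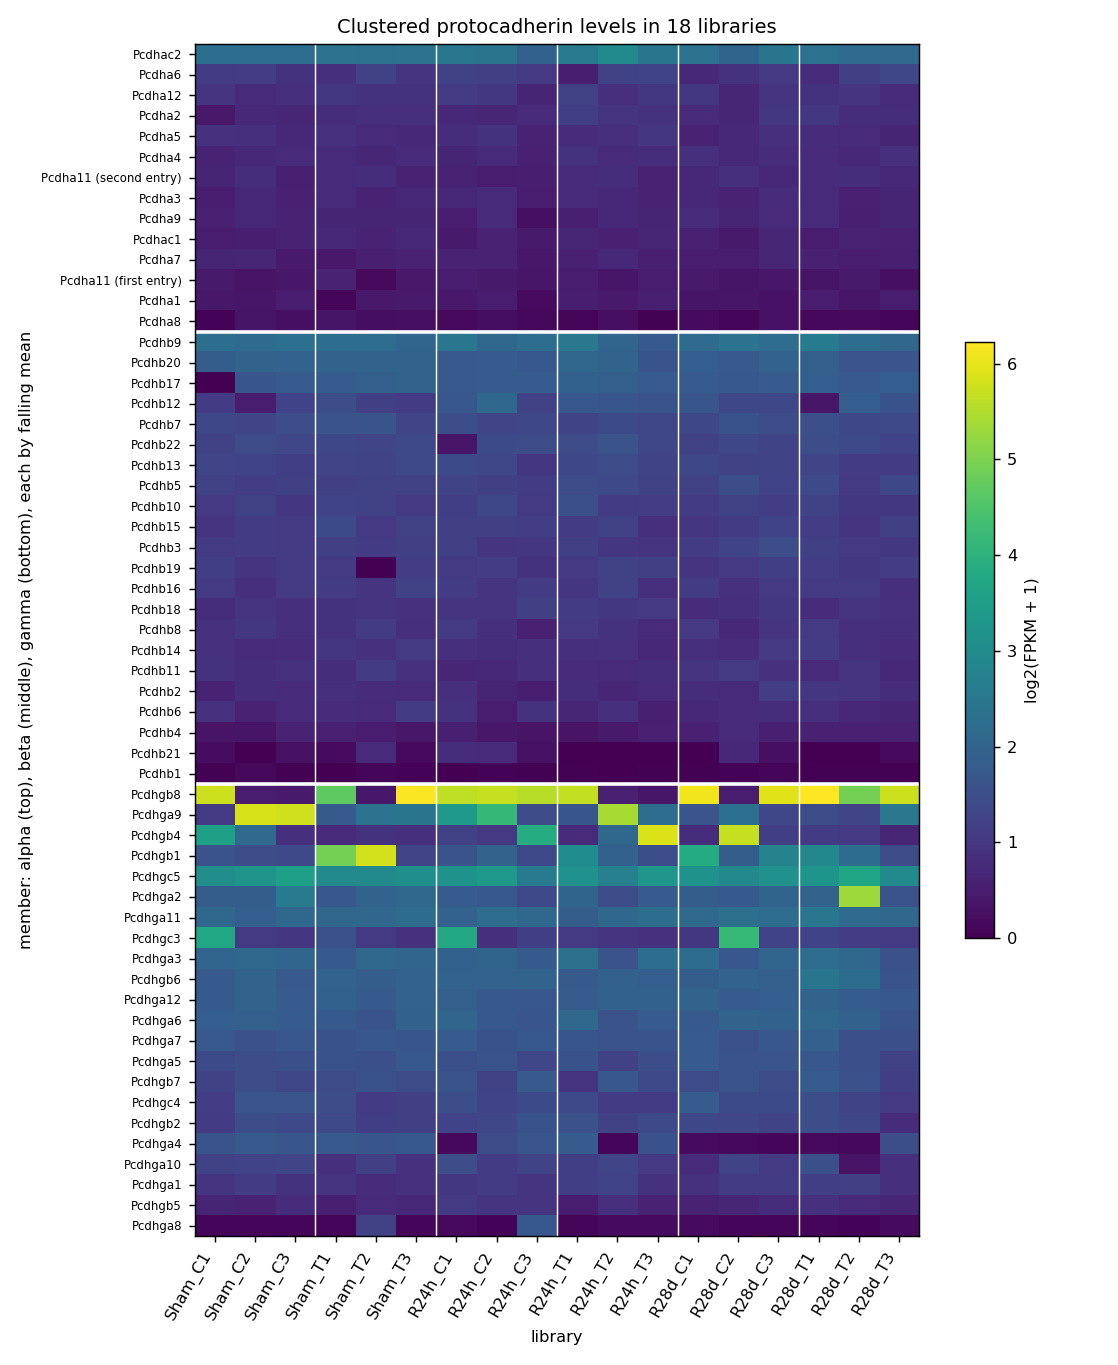
Level of all 58 members, as log2(FPKM + 1) on the colour scale, in the 18 libraries (columns, with vertical lines between the 6 groups), with alpha members at the top, beta in the middle and gamma at the bottom, each sorted by falling mean. Rows of Pcdhgb8, Pcdhga9, Pcdhgb4, Pcdhgb1, Pcdhga2, Pcdhgc3 and Pcdhga4 change shade between libraries, while most alpha and beta rows keep 1 shade. Pcdhga2 is bright in 1 library only, and Pcdhga4, at most 2.52 FPKM, stays in the darker part of the scale.

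Pcdhgb8 moved between near absence and the highest values of the whole family from one library to the next, and 4 other gamma members reached above 20 FPKM in 1 to 3 libraries each. Pcdhgb8 (ENSMUSG00000103081) was at 52.9, 0.407 and 0.362 FPKM in Sham_C1 to Sham_C3 and at 24.8, 0.314 and 71.5 FPKM in Sham_T1 to Sham_T3. The values at 24 h were 48.4, 49.9 and 46.4 FPKM in R24h_C and 49.5, 0.493 and 0.307 FPKM in R24h_T. The values at 28 d were 66.9, 0.419 and 60.8 FPKM in R28d_C and 73.8, 29.6 and 52.7 FPKM in R28d_T. The values therefore lay either below 0.5 FPKM or above 20 FPKM, and 4 of the 6 groups held libraries of both kinds.

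Where Pcdhgb8 was low, another gamma member was high. Pcdhga9 (ENSMUSG00000102440) reached 56.3 FPKM in Sham_C2, 53.5 FPKM in Sham_C3 and 41.3 FPKM in R24h_T2, against 1.08 to 16.8 FPKM in the other 15 libraries. Pcdhgb4 reached 59.1 FPKM in R24h_T3 and 50.2 FPKM in R28d_C2. Pcdhgb1 reached 54.9 FPKM in Sham_T2. These 6 libraries are the 6 in which Pcdhgb8 was below 0.5 FPKM.

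In 2 further libraries, Pcdhgb8 shared the lead. In Sham_T1, Pcdhgb1 was at 29.3 FPKM and Pcdhgb8 at 24.8 FPKM. In R28d_T2, Pcdhga2 was at 38.7 FPKM and Pcdhgb8 at 29.6 FPKM, and Pcdhga2 stayed between 1.60 and 4.89 FPKM in all other libraries. The leading member of these 5 was thus Pcdhgb8 in 10 libraries, Pcdhga9 in 3, Pcdhgb1 in 2, Pcdhgb4 in 2 and Pcdhga2 in 1.

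**Figure D2:**
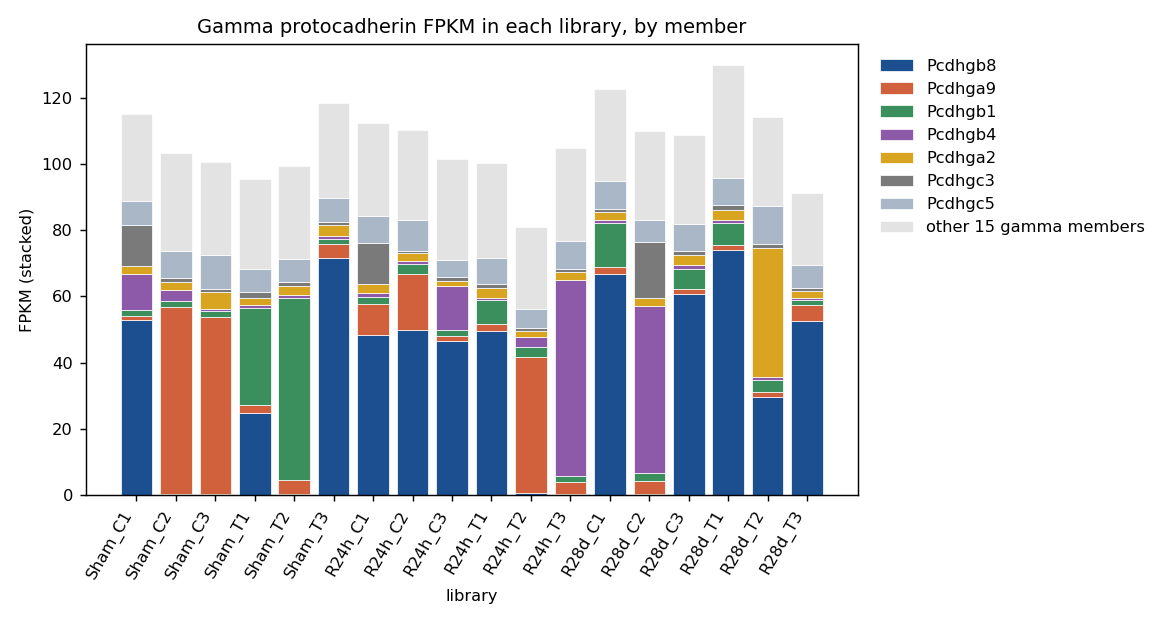
Stacked FPKM (y axis) of the gamma members in each of the 18 libraries (x axis), with 7 members coloured and the other 15 in pale grey. The block of the 5 switching members, 49.6 to 86.1 FPKM high, is filled mainly by Pcdhgb8 in most libraries and by Pcdhga9, Pcdhgb1, Pcdhgb4 or Pcdhga2 in others, and the total stays between 80.9 and 129.7 FPKM.

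The sum of these 5 members had a smaller CV than any of them. The 5 were chosen after their values were seen, and the CV of a sum cannot be read against that of single genes. It was 49.6, 64.6 and 86.1 FPKM (lowest, median and highest of 18 libraries), with a CV of 14.2%, whereas the CV of the single members was 79.7% for Pcdhgb8, 156% for Pcdhga9, 170% for Pcdhgb1, 183% for Pcdhga2 and 206% for Pcdhgb4. The leading member held 49.3 to 87.8% of the sum (median 83.6%), and the first 2 together held 89.8 to 95.5%. The 5 members made up 54.0 to 69.7% of the gamma FPKM in every library, and gamma made up 64.6 to 77.1% of the FPKM of all 58 members.

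Leaders changed within groups as well as between them. R24h_C had Pcdhgb8 in the lead in all 3 libraries, R24h_T had 3 different leaders, and the other 4 groups had 2 leaders each. Pcdhgb8 led in at least 1 library of each of the 6 groups. It was low in 4 of the 13 libraries with few choroid plexus transcripts and in 2 of the 5 with many.

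The 5 members share a feature of their gene models. In the GENCODE M21 annotation (GRCm38), to which all 58 member identifiers and all 88 of their listed transcripts were matched, the last exon of Pcdhga2, Pcdhga9, Pcdhgb1, Pcdhgb4 and Pcdhgb8 ends 3 bases before the end used by the other 17 gamma members. Of these 5, 5 exceeded 20 FPKM in some library, with highest values of 38.7 to 73.8 FPKM. Of the other 17, 0 did, with highest values of 1.08 to 17.03 FPKM. The feature was looked for after the values had been seen, and its part in the values was not tested. The submitters' notes name another build (mm9), although all 58 member identifiers matched, so the annotation used is not certain.

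Exons shared between members limit what a value of a single gene can mean. Gamma members shared a median of 44.7% of their annotated exon bases with other members of the cluster (27.8 to 66.8%), and alpha members shared 53.4% (38.0 to 54.9%). Beta members shared a median of 0%, and only Pcdhb21 and Pcdhb22 overlapped, by 455 bases. Fragments that lie within constant exons cannot be assigned to a variable exon by position, so the level of any alpha or gamma member depends on how the quantification divided them. By sequence, a median of 4.26% of the 50-base windows of beta members occurred in another member, against 59.7% in alpha and 44.4% in gamma.

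**Figure D3:**
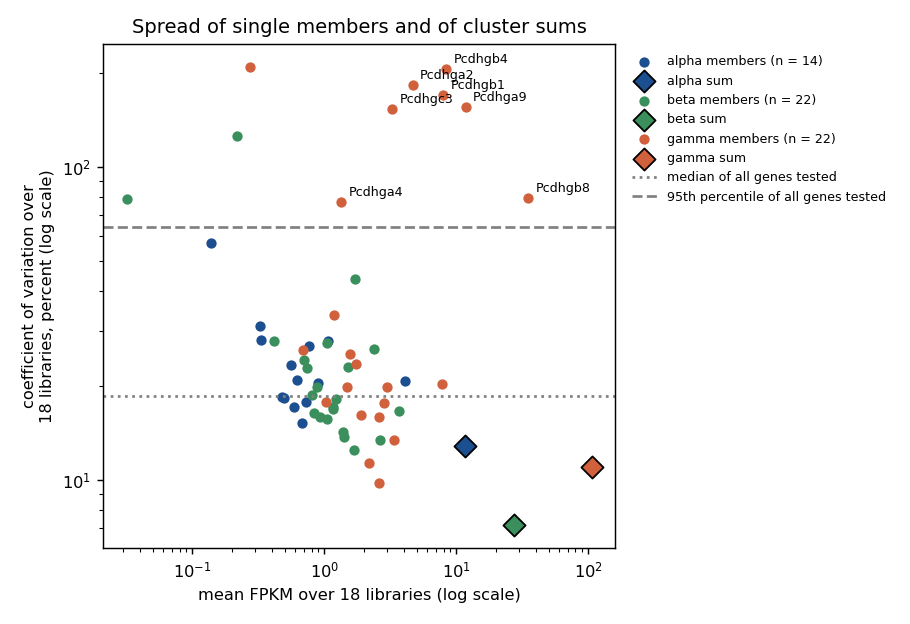
Coefficient of variation over the 18 libraries (y axis, percent, log scale) against the mean FPKM (x axis, log scale) for the 58 members (points) and the 3 cluster sums (diamonds), with dashed and dotted lines at the 95th percentile and the median of all genes tested. The 7 named gamma members lie above the 95th percentile of 64.2%, and the 3 sums lie at 12.8, 7.16 and 10.96%.

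A subset of gamma members stood apart in spread, and the remaining 13 tested gamma members did not. Over the 13748 genes tested, the CV had a median of 18.5% and a 95th percentile of 64.2%. Above that percentile lay 7 of 20 tested gamma members (Pcdhgb8, Pcdhga9, Pcdhgb1, Pcdhgb4, Pcdhga2, Pcdhgc3 and Pcdhga4), 0 of 13 beta members and 0 of 2 alpha members. The median CV was 21.8% in gamma (9.76 to 206%) and 16.9% in beta (12.4 to 43.9%), and the 2 alpha members, at 20.8% (Pcdhac2) and 27.7% (Pcdha6), lay within both ranges. Below the filter, Pcdhb21 (125%), Pcdhb1 (79.2%) and Pcdhga8 (209%) also exceeded 64.2%, at means of 0.217, 0.0317 and 0.274 FPKM.

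Summed over whole clusters, the members had CVs of 7.16 to 12.8%, and a sum cannot be read against the CV of single genes. The alpha sum was 8.41, 11.8 and 15.3 FPKM (CV 12.8%), the beta sum 23.6, 28.2 and 30.8 FPKM (CV 7.16%) and the gamma sum 80.9, 106.8 and 129.7 FPKM (CV 10.96%). Across groups the mean gamma sum ran from 95.3 ± 12.7 FPKM (SD, n = 3) in R24h_T to 113.8 ± 7.71 FPKM in R28d_C, and these ranges overlapped with those of sham. The beta sum was 25.2 ± 1.64 FPKM in Sham_C and between 27.4 ± 1.80 and 28.6 ± 0.766 FPKM in the other groups. The alpha sum was 13.9 ± 1.27 FPKM in R24h_T, whose 3 libraries (12.9 to 15.3 FPKM) lay above those of Sham_T (11.7 to 12.1 FPKM), while R24h_C (8.41 to 12.5 FPKM) overlapped with Sham_C. Without occlusion, Sham_C and Sham_T did not overlap with each other in the alpha sum or in the beta sum. They also did not overlap in the sum of the 17 gamma members that do not end early. The lowest beta sum, 23.6 FPKM, was that of Sham_C1, where Pcdhb17 was listed at 0. A sum over members was given no test.

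**Figure D4:**
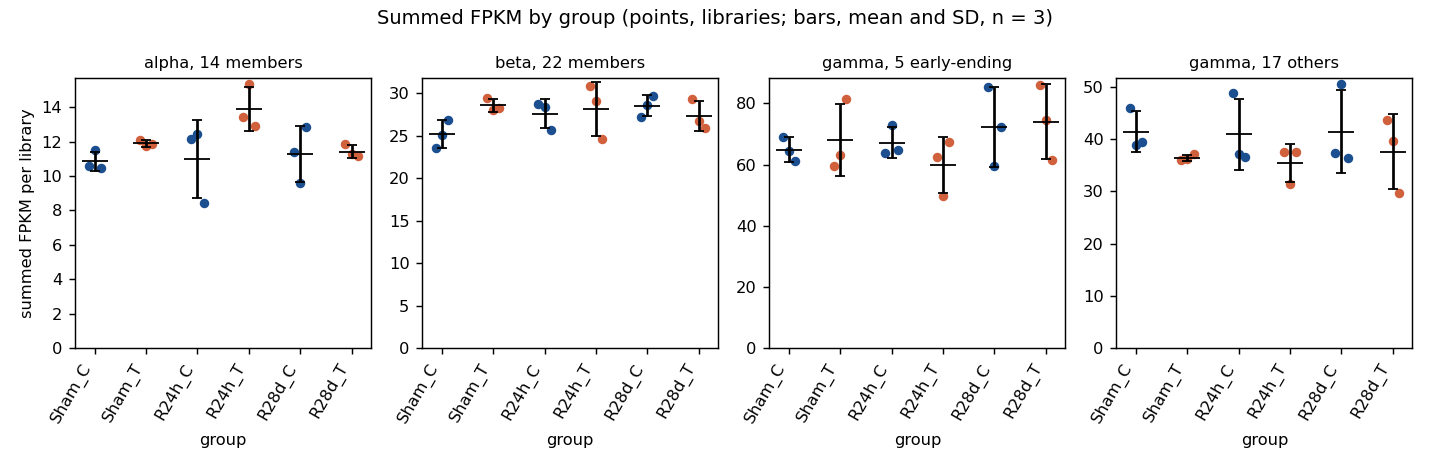
Summed FPKM (y axis, from 0) of the alpha, beta, 5 early-ending gamma and 17 other gamma members in each library (points, blue for the scramble arm and orange for the TIPARP arm), by group (x axis), with mean and SD of 3 libraries as bars. All groups overlap for the 5 early-ending gamma members. Sham_C and Sham_T do not overlap in the other panels, and alpha in R24h_T lies above Sham_T.

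Values of 3 members fell into a high and a low cluster of libraries. The rule asked for a gap of at least 0.5 between neighbouring values of log2(FPKM + 1), wider than the range on either side of it, with at least 2 libraries on each side. It was met by 3 of the 35 tested members (8.57%), against 1.59% of all genes tested. The 3 were the gamma members Pcdhgb8, Pcdhgc3 and Pcdhga4, and none of the 13 beta or 2 alpha members met it.

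For Pcdhgb8 the gap was 4.11 on the log2 scale, between 6 libraries at 0.307 to 0.493 FPKM and 12 at 24.8 to 73.8 FPKM. For Pcdhgc3 (ENSMUSG00000102918), a C-type isoform, the gap was 2.19, between 15 libraries at 0.796 to 1.91 FPKM and 3 at 12.3 to 17.03 FPKM. The 3 high libraries were Sham_C1 (12.3 FPKM), R24h_C1 (12.5 FPKM) and R28d_C2 (17.03 FPKM). All 3 are scramble libraries of different groups, and each of those groups was split. The sum of the 17 other gamma members had a CV of 13.8% with Pcdhgc3 and 8.52% without it.

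For Pcdhga4 (ENSMUSG00000103677), an alternate isoform of the A subfamily, the gap was 1.23, between 7 libraries at 0.0653 to 0.141 FPKM and 11 at 1.68 to 2.52 FPKM. All 6 sham libraries were high, at 2.07 to 2.35 FPKM. The low libraries were R24h_C1, R24h_T2, all 3 of R28d_C, R28d_T1 and R28d_T2, so that this split, unlike that of Pcdhgb8, fell mostly between times. Pcdhga4 also had the largest overlap with other gene models, with 66.8% of its exon bases shared, because its annotated exons overlap those of Pcdhgb1. Pcdhgb1 was at 2.07 to 13.1 FPKM (median 3.61) in the 7 low libraries and at 1.48 to 54.9 FPKM (median 1.80) in the 11 high ones, and the part of this overlap in the values was not tested.

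Members just outside the rule had 1 library apart or values spread on one side of the gap. The widest gap was 2.75 for Pcdhga2 (1 high library), 1.83 for Pcdhgb4 (2 high), 1.24 for Pcdhga9 (3 high) and 1.10 for Pcdhgb1 (2 high). In the beta cluster the widest gap of Pcdhb12 was 0.617, with 2 low libraries, Sham_C2 (0.389 FPKM) and R28d_T1 (0.305 FPKM). The other 3 beta members with wide gaps were low in a single library. Pcdhb17 was listed at 0 in Sham_C1 and lay at 2.18 to 2.94 FPKM elsewhere. Pcdhb19 was listed at 0 in Sham_T2 and lay at 0.883 to 1.35 FPKM elsewhere. Pcdhb22 was at 0.299 FPKM in R24h_C1 and at 1.34 to 2.03 FPKM elsewhere. In the annotation Pcdhb17 ends 10 bases from Pcdhb18, which was at 0.751 FPKM in Sham_C1 (0.728 to 1.28 over all libraries). Pcdhb19 ends 135 bases from Pcdhb20, which was at 2.94 FPKM in Sham_T2 (2.07 to 3.16). Pcdhb21, which overlaps Pcdhb22 by 455 bases, was at its highest, 0.762 FPKM, in R24h_C1. It was also at 0.709 FPKM in Sham_T2 and 0.678 FPKM in R24h_C2, where Pcdhb22 was at 1.47 and 1.65 FPKM. The part of neighbouring models in these values was not tested. Below the filter, Pcdhga8 was at 0.0451 to 0.141 FPKM in 16 libraries, 1.30 FPKM in Sham_T2 and 2.26 FPKM in R24h_C3.

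**Figure D5:**
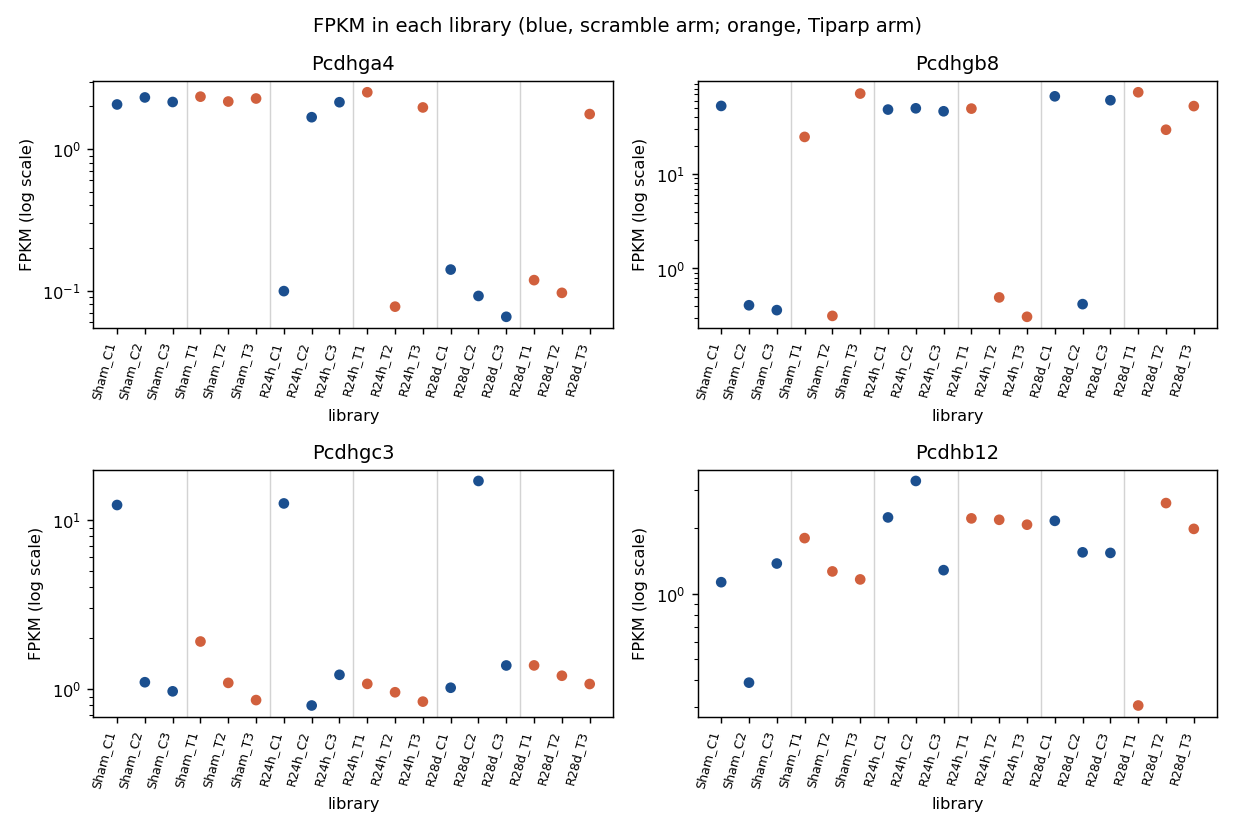
FPKM (y axis, log scale) of Pcdhga4, Pcdhgb8, Pcdhgc3 and Pcdhb12 in each of the 18 libraries (x axis, grey lines between groups, blue for the scramble arm and orange for the TIPARP arm). Pcdhga4 is high in all 6 sham libraries and low in 5 of 6 libraries at 28 d, Pcdhgb8 switches within 4 groups, Pcdhgc3 is high in 3 scramble libraries, and Pcdhb12 overlaps between groups.

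The question of the next comparison was which members differed 24 h after occlusion. None of the 35 tested members passed in the scramble arm, where 22.7% of all genes tested did. With 1 library left out, that share of all genes ran from 2.36% (without Sham_C2) to 38.1% (without R24h_C2), with 359 genes called without Sham_C1, 372 without Sham_C3 and 625 without R24h_C1, and the members' count was 0 in all of these fits but that without Sham_C1, which gave 1. The tested alpha, beta and gamma members had median log2 differences of 0.07, 0.01 and 0.00, beside 0.12 over all genes. At an unadjusted p under 0.05 there were 2 members, against 39.8% of all genes. These were Pcdhgb8, with the log2 difference of 3.39 (SE 1.38, adjusted p = 0.118) that its split sham values gave, and Pcdhb12 (0.73, SE 0.29, adjusted p = 0.112).

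In the TIPARP arm 0 of 35 members passed at 24 h, beside 0.0946% of all genes (0.00727% without R24h_T1, 8.53% without R24h_T3, and 3, 4 and 8 genes without Sham_T2, Sham_T3 and R24h_T2). An unadjusted p under 0.05 was reached by 1 member, against 14.6% of all genes. The arms have no library in common. Median log2 differences there were 0.15 in alpha, -0.02 in beta and -0.04 in gamma, beside 0.06 over all genes. With both arms in 1 fit and the arm as a term, 1 of 35 members rose, beside 23.7% of all genes changed in either direction (13.2% without R24h_C1 to 34.8% without R24h_T3). Of all genes 18.2% rose and 5.46% fell (11.4% and 9.11% after median-ratio scaling), and 34 of the 35 members did not pass.

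That member was Pcdhb12 (ENSMUSG00000043458), a beta protocadherin. It was at 1.13, 0.389 and 1.38 FPKM in Sham_C and at 1.80, 1.27 and 1.16 FPKM in Sham_T. Its values at 24 h were 2.25, 3.31 and 1.28 FPKM in R24h_C and 2.23, 2.19 and 2.08 FPKM in R24h_T. The lowest library at 24 h (R24h_C3) lay within the sham range, and all 5 others lay above it. The log2 difference was 0.57 (SE 0.17, limma adjusted p = 0.0318), from a mean of 1.19 to 2.22 FPKM. The call is near the threshold: it was lost after median-ratio scaling of the libraries (0.50, adjusted p = 0.0552) and without any one of Sham_C1, Sham_C2, R24h_C1, R24h_C2, Sham_T2, Sham_T3 or R24h_T2, with adjusted p of 0.0203 to 0.0727 over the 12 fits that left out a library. With the replicate number as a block the adjusted p was 0.051, and without the 5 libraries of high choroid plexus markers the difference was 0.81 (adjusted p = 0.0306).

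Markers of other cell types also moved at 24 h. The 10 microglial and leukocyte markers summed to 52.7 to 56.2 FPKM in sham and to 72.7 to 290.0 FPKM at 24 h, with 5 of 9 tested rising and 1 falling (3 and 1 after scaling). S100a8 and S100a9, which mark neutrophils, were among those that rose: S100a9 was at 0.231 to 1.05 FPKM in sham and at 2.93 to 117 FPKM at 24 h, and S100a8 was listed at 0 in 2 sham libraries and reached 36.6 FPKM at 24 h. The 6 endothelial markers summed to 5.24 to 7.00 FPKM in sham and to 12.6 to 47.8 FPKM at 24 h, with 4 of 5 tested rising. The neuronal markers summed to 998 to 1104 FPKM in sham and to 986 to 1160 FPKM in R24h_T. In R24h_C they summed to 601, 987 and 1112 FPKM (lowest, median and highest), so the low value was that of 1 library. Of 10 neuronal markers 2 rose (Nefm, 0.57, and Elavl4, 0.52) and 2 fell (Tubb3, -0.55, and Map2, -0.35), whereas after scaling 0 rose and the same 2 fell. Of 9 astrocyte markers 2 rose (Gfap and Aqp4) and 1 fell (Slc1a2), and Gfap, which marks reactive astrocytes, was at 27.5 to 49.5 FPKM in sham and at 150.1 to 413.5 FPKM at 24 h. After scaling, Gfap rose and Slc1a2 and Aldoc fell. Of 9 striatal markers 1 fell, Drd2, and of 8 oligodendrocyte and 2 choroid plexus markers tested 0 passed before scaling. The part of these shifts in the level of Pcdhb12 was not tested.

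At 28 d, 1 of 35 members changed in the scramble arm, beside 0.0509% of all genes (2.81% without R28d_C1). This was Pcdhga4, which fell, as did 0.0291% of all genes. It was at 2.07, 2.32 and 2.15 FPKM in Sham_C and at 0.141, 0.0917 and 0.0653 FPKM in R28d_C, with no overlap. The log2 difference was -1.53 on the log2(FPKM + 1) scale (SE 0.09, limma adjusted p = 0.00471), which understates the ratio of the means, 2.18 against 0.0993 FPKM. The fall passed in all 6 fits that left out 1 of these libraries (adjusted p 0.00445 to 0.0403), and without R28d_C2, the library among them with high choroid plexus markers, it was -1.53 (adjusted p = 0.0188). It did not pass with the replicate number as a block (adjusted p = 0.307) or when all 18 libraries entered the fit (adjusted p = 0.9999). The log2 difference was -1.53 in both. In the fit of all 18 libraries, the split values of other groups entered the spread.

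In the TIPARP arm Pcdhga4 was at 2.35, 2.17 and 2.28 FPKM in Sham_T and at 0.119, 0.0964 and 1.77 FPKM in R28d_T. The groups did not overlap, but the 3 libraries at 28 d were split, and the difference did not pass (log2 difference -1.12, SE 0.36, adjusted p = 0.428). Without R28d_T3 it was -1.56 (adjusted p = 0.00615). Both arms together gave -1.32 (SE 0.20, adjusted p = 0.132), -1.54 without R28d_T3 (adjusted p = 3.69e-07) and -1.31 without R28d_C1 (adjusted p = 0.0353). The difference between the arms in the change of Pcdhga4 was 0.41 (SE 0.40, adjusted p = 0.952), so a difference between arms was not shown. At 24 h Pcdhga4 was at 0.0992, 1.68 and 2.14 FPKM in R24h_C and at 2.52, 0.0770 and 1.97 FPKM in R24h_T, with 1 low library in each arm.

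No other member passed at 28 d. In the scramble arm 5 of 35 members had an unadjusted p under 0.05, against 11.8% of all genes. In the TIPARP arm 0 of 35 members passed, beside 0.00727% of all genes (5.70% without R28d_T3). At an unadjusted p under 0.05 there were 2, against 10.9% of all genes. With both arms together 0 passed, beside 0.00727% (8.12% without R28d_T3 and 504 genes without R28d_C1). At an unadjusted p under 0.05 there were 3, against 17.4% of all genes. The median log2 differences in the scramble arm were -0.07 in alpha, 0.07 in beta and 0.05 in gamma, beside 0.04 over all genes, and in the TIPARP arm -0.02, -0.07 and 0.01, also beside 0.04. Between 28 d and 24 h, with both arms together, 0 of 35 members passed, beside 2.95% of all genes (0.0145% without R28d_C2 to 17.8% without R24h_T3). At an unadjusted p under 0.05 there were 0, against 25.7% of all genes. The comparisons with sham in 1 arm share that arm's sham libraries. The microglial and leukocyte markers summed to 51.5 to 95.2 FPKM in R28d_C and 62.8 to 114.0 FPKM in R28d_T. The 9 astrocyte markers summed to 586 to 735 FPKM in sham, 655 to 1183 FPKM in R28d_C and 731 to 1580 FPKM in R28d_T, with Gfap at 37.8 to 407 and 96.8 to 886 FPKM. The 9 striatal markers summed to 130.2 to 332.5 FPKM in sham, 95.5 to 121.4 FPKM in R28d_C and 42.2 to 190.8 FPKM in R28d_T. No gene of the marker lists passed at 28 d over both arms, and the part of these shifts in the level of Pcdhga4 was not tested.

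Between the arms, no member passed at any time. In sham 0 of 35 members passed, beside 0.189% of all genes, with 1 at an unadjusted p under 0.05 (Pcdhga10). At 24 h 0 passed, beside 0% of all genes, with 1 at an unadjusted p under 0.05. That was Pcdhgb8, at a log2 difference of -3.41 (SE 1.27, adjusted p = 0.672), with 2 of 3 libraries of R24h_T in its low cluster. At 28 d 0 passed, beside 0% of all genes, with 0 at an unadjusted p under 0.05. The difference between arms in the change from sham passed for 0 members at 24 h, beside 0% of all genes, and for 0 at 28 d, beside 0.00727%, with 0 and 1 members at an unadjusted p under 0.05.

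For Pcdhac2 and Pcdhgc5, C-type members that did not switch, the differences were small beside those of the switching genes. Pcdhac2, the leading alpha isoform, was at 3.67 to 3.75 FPKM in Sham_C and 3.98 to 4.19 FPKM in Sham_T, against 2.84 to 4.43 FPKM in R24h_C and 4.36 to 6.76 FPKM in R24h_T. The groups overlapped in the scramble arm and did not in the TIPARP arm, where the difference was 0.30 (SE 0.16, adjusted p = 0.399). The difference at 24 h over both arms was 0.17 (SE 0.11, adjusted p = 0.298). Pcdhgc5 differed by -0.10 at 24 h (SE 0.14, adjusted p = 0.638) and by 0.05 at 28 d (SE 0.13, adjusted p = 0.880). For Pcdhgb8 the differences were 0.92 at 24 h (SE 1.41, adjusted p = 0.661) and 1.91 at 28 d (SE 1.28, adjusted p = 0.466). With standard errors above 1 on the log2 scale, changes of severalfold in Pcdhgb8 were not detectable with these libraries, whereas the standard errors of Pcdhgc5 and Pcdhac2 in the same 2 comparisons were at most 0.14.

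In the lists of genes that act on or with the clusters, some members rose at 24 h, at shares to be read against the 18.2% of all genes that rose. Of 18 factors known for promoter choice, looping or silencing of the clusters, 17 were tested, and 4 rose and 0 fell at 24 h over both arms. These included the cohesin subunits Smc1a (0.41, SE 0.09, adjusted p = 0.00827) and Smc3 (0.34, SE 0.09, adjusted p = 0.0179) and the cohesin release factor Wapl (0.47, SE 0.11, adjusted p = 0.0124). Smc1a was at 12.2 to 13.3 FPKM in the 6 sham libraries and at 13.4 to 20.2 FPKM at 24 h, with no overlap. The count is close to that share, and the list's median log2 difference was 0.13, beside 0.09 over all genes. After median-ratio scaling, which set the median of all genes to 0.00, 3 of the 17 rose (Smc1a, Smc3 and Wapl) and 2 fell (Dnmt3a and Setdb1). Ctcf was at 8.78 to 12.4 FPKM over all libraries.

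Among 12 protocadherins outside the clusters 8 were tested, and 1, Pcdh7, rose at 24 h (0.47, SE 0.12, adjusted p = 0.0161) while 0 fell. Pcdh7 was at 3.63 to 5.29 FPKM in sham and at 4.29 to 8.12 FPKM at 24 h, and after scaling it did not pass, while Pcdh1 fell. A list of 13 genes that connect protocadherin tails to actin held kinases, Rac1 and members of the WAVE complex. Of these, 2 rose and 0 fell: Wasf2 (0.69, SE 0.14, adjusted p = 0.00548), a WAVE subunit, and Cyfip1 (0.32, SE 0.08, adjusted p = 0.0171), a subunit of the same complex. After scaling both rose and Wasf3 fell. Wasf2 was at 3.55 to 4.01 FPKM in sham and at 4.60 to 9.505 FPKM at 24 h, with no overlap. Of 8 genes for shedding and cleavage of protocadherins by ADAM proteases and gamma-secretase, 2 rose and 0 fell, close to the share of all genes, and both are gamma-secretase subunits: Psenen (0.39, SE 0.10, adjusted p = 0.0170) and Ncstn (0.29, SE 0.08, adjusted p = 0.0285). Neither passed after scaling. At 28 d over both arms, 0 genes of these 4 lists passed.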

How the data were processed

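The authors deposited FPKM per gene for 18 libraries of mouse cortex. Per the submitters' processing notes, HISAT, StringTie and edgeR were used, with build mm9 and no versions. The RNA was poly(A) selected and the paired-end libraries were stranded by dUTP, per the labels' protocols. Gene identifiers matched GENCODE M21 (GRCm38) for 37225 of 37319 entries (99.7%), so no coordinates are given. Read totals were not used here, so no counting interval can be had.

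Groups came from the labels. Genes with a mean of at least 1 FPKM over the 18 libraries (13748) were tested on log2(FPKM + 1), two-sided, by limma 3.58.1 under R 4.3.3, with a trended empirical Bayes prior and only the libraries of the groups compared. Benjamini-Hochberg adjustment ran over all genes tested, at 0.05. A pseudocount of 1 understates the change of low genes. The method was tested on simulated data for 13748 genes with normal noise drawn independently for each gene. Deviations that many genes of a library share were not simulated, so recovery in the real libraries may be lower. For 28 d against sham in the scramble arm, 85% of genes made with a log2 change of 1 were found and 97% of those made with 2. For changes of 1 the share was 64% at 24 h in the scramble arm, 57% at 24 h in the TIPARP arm and 40% between arms at 24 h. Other analyses used Python 3.11.15.

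Members and lists were chosen with earlier results of these data known. Members named with values were those that passed, those with a high and a low cluster, the 2 highest of each cluster and the C-type members, and members named for single libraries or for the 5 switching genes were chosen after their values were seen. From other lists at most 3 passing genes with the smallest adjusted p were named, apart from Ctcf, Elavl4 and those that changed after scaling or were named as markers. Alternatives were another pseudocount, other filters, array weights, a block on the replicate number, median-ratio scaling, a fit of all 18 libraries, other settings of the cluster rule and each library left out.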

Additional observations from a re-analysis of the deposited data

How the results depend on the processing

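Against sham, the log2 differences of Pcdhga4 at 28 d and of Pcdhb12 at 24 h kept their sign under every alternative run. This held in each arm and over both arms. For the other named members the sign was not followed. For 24 h against sham over both arms, the 1 called member became 0 without a filter, after median-ratio scaling, with the replicate number as a block and with all 18 libraries in 1 fit, 2 with array weights, and 0 to 1 with a library left out. For 28 d in the scramble arm, the 1 called member became 0 with the block and with all 18 libraries, and 1 to 2 with a library left out (2 without Sham_C1). Array weights gave 3 members at 24 h in the scramble arm, 4 at 28 d in the TIPARP arm, 1 at 28 d over both arms and 1 for 28 d against 24 h, where the count was 0. The share of all genes called with array weights is not given here, so these counts say nothing particular about the members. Leaving out a library gave 0 to 1 at 24 h in the scramble arm (1 without Sham_C1), at 28 d in the TIPARP arm (1 without R28d_T3), at 28 d over both arms (1 without R28d_C1 or R28d_T3), and between arms in sham (1 without Sham_C1 or Sham_T3) and at 24 h (1 without R24h_T1). Without the requirement on the width of the gap, 7 members had a high and a low cluster in place of 3, beside 4.9% of all genes tested in place of 1.59%. Leaving out the 5 libraries of high choroid plexus markers, chosen after seeing the data, changed no count. The CV of the sums with a library left out was 10.8 to 13.2% in alpha, 6.33 to 7.37% in beta and 9.31 to 11.3% in gamma. The replicate numbers were not treated as pairs: deviations from the group means correlated at -0.42 to 0.21 between same-numbered libraries of different groups (median -0.01, 45 pairs) and at -0.33 to 0.41 between others (median 0.01, 90 pairs), and the block changed no other count. The cause of these changes was not tested. FPKM carry no depth, so levels near 0 have no counting limit.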

Other observations

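Gm38182 (ENSMUSG00000102828), a gene model of 1530 exon bases in GENCODE M21 that all lie within exons of gamma protocadherins, was at 1.83 to 22.8 FPKM over the 18 libraries. It was lowest in Sham_C3 (1.83 FPKM) and highest in R28d_T1 (22.8 FPKM). It is no member of the family by symbol, and it entered no sum.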
